A study of Mus musculus with 2 samples.

Results

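The genes described here are 9 core components of the transforming growth factor beta (TGF-beta) pathway: the ligand Tgfb1, the milieu molecule Nrros, the receptors Tgfbr1 and Tgfbr2, the signal transducers Smad2, Smad3 and Smad4, and the inhibitors Smad7 and Ski. They were picked by symbol from the 32589 features listed for both libraries, and each symbol matched 1 feature. Their levels were read in microglia, the brain's resident macrophages, taken from prefrontal cortex of C57BL/6 mice. One group of mice received vehicle. The other received corticosterone, the rodent counterpart of cortisol, by oral gavage as a model of depression with raised glucocorticoid. Cells had been sorted as CD45low CD11b+, digested tissue being the input, and were sequenced with a Singleron GEXSCOPE single-cell kit. The data hold 1 library of each group. The number of animals in each library, their age and sex, the dose and the duration are not given in the sources used here. No difference below could therefore be checked against replicates, p-values were not computed, and all intervals are 95% intervals for counting error alone. Treatment, library and any preparation batch cannot be told apart.

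TGF-beta is secreted in a latent form, held inactive by its own propeptide. In microglia and other macrophages the Nrros protein anchors this latent complex, and integrins release the active ligand. The active ligand binds the type II receptor Tgfbr2, which recruits and phosphorylates the type I receptor Tgfbr1, and Tgfbr1 phosphorylates Smad2 and Smad3. These join Smad4 and enter the nucleus, where the complex binds short DNA elements and changes transcription. Smad7, itself a target of the pathway, blocks the receptors and directs them to degradation, and Ski is a corepressor that binds the Smad complex on DNA. Mature microglia depend on this pathway for much of their characteristic gene expression.

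Promoter windows of the anchor and of both receptors are printed because Nrros and Tgfbr1 were higher in the corticosterone library while Tgfbr2 was level. Each window holds the 250 bases before a RefSeq start on GRCm38.p6, written 5′ to 3′ on the strand of the gene: chr16:32165595-32165844 (minus) for Nrros, chr4:47352972-47353221 (plus) for Tgfbr1 and chr9:116175364-116175613 (minus) for Tgfbr2. None of these windows overlaps an annotated exon. Capitals mark matches to the Smad box CAGAC, searched with its reverse complement GTCTG, and to the palindrome GGCGCC, a GC-rich Smad element. These letters do not overlap between the motifs.
Nrros: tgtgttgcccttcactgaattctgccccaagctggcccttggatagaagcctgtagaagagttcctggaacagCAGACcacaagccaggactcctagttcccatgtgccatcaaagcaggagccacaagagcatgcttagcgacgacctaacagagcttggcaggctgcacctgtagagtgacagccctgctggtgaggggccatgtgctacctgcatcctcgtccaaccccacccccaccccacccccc
Tgfbr1: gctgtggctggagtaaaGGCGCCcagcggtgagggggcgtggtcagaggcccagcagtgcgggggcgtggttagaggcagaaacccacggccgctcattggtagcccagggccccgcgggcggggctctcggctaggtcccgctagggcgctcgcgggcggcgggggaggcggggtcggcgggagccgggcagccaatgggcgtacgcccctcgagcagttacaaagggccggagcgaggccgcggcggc
Tgfbr2: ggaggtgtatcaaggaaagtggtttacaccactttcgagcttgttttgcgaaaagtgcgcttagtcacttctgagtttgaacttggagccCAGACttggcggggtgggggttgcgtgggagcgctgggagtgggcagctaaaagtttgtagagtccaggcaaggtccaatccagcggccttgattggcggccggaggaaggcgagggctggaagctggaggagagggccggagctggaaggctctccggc
The Nrros and Tgfbr2 windows hold 1 CAGAC match each and the printed Tgfbr1 window holds 1 GGCGCC match and no CAGAC match. A second RefSeq start of Tgfbr1, within the gene, has a window at chr4:47385966-47386215 that is not printed and holds 1 CAGAC match and no GGCGCC match, with 52.8% G or C. Among 32851 promoter windows of the same length, 42.2% held a CAGAC match and 9.59% a GGCGCC match, so a match to CAGAC is common. The printed Tgfbr1 window was 74.8% G or C and the Nrros and Tgfbr2 windows 58.4% each, against a median of 52.4% over all windows. Windows of Tgfb1 and Smad3, not printed, held no match to either motif, and that of Ski, also not printed, held 1 GGCGCC match. No window of Smad2, Smad4 or Smad7 is shown. The matches describe the letters alone, were not related to the ratios, and are not binding sites shown by these data.

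The genes lie on 5 chromosomes of the GRCm38 build, by their Ensembl identifiers in GENCODE M21, and all are protein-coding. Tgfb1 (ENSMUSG00000002603) is at chr7:25687002-25705077 on the plus strand and Nrros (ENSMUSG00000052384) at chr16:32142785-32165594 on the minus strand. Tgfbr1 (ENSMUSG00000007613) is at chr4:47353222-47414931 on the plus strand and Tgfbr2 (ENSMUSG00000032440) at chr9:116084293-116175360 on the minus strand. Smad3 (ENSMUSG00000032402) is at chr9:63646767-63757994 and Ski (ENSMUSG00000029050) at chr4:155154075-155222592, both on the minus strand. Smad2 (ENSMUSG00000024563), Smad4 (ENSMUSG00000024515) and Smad7 (ENSMUSG00000025880) are all on chromosome 18.

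After filtering, the vehicle library had 10500 cells and the corticosterone library 17883 cells, with 49325067 and 85103539 UMIs (molecular tags that count each captured transcript 1 time). As deposited, the libraries shared 104 cell barcodes. Of these, 91 in vehicle and 86 in corticosterone were among the microglia-like cells defined below. Without these cells the Smad7 ratio given below was -1.05 and the median ratio of the 9 genes -0.05, as with them. Cells were clustered without the 9 genes, and clusters were named by marker genes. Microglia-like cells numbered 7861 in vehicle (74.9%, 74.0 to 75.7%) and 15209 in corticosterone (85.0%, 84.5 to 85.6%), and 10 of 10 microglia markers were detected at 20 CPM (counts per 1e6 UMIs) or more in both. The libraries separated within this class: cluster 1 held 93.1% of the vehicle cells, and clusters 0 and 2 held 69.1% and 25.2% of the corticosterone cells. The median microglia-like cell had 3178 UMIs and 2.45% mitochondrial UMIs in vehicle and 4000 UMIs and 4.10% in corticosterone. Within the class, the summed level of 8 neutrophil markers was 448 CPM with vehicle and 132 CPM with corticosterone, and that of 5 astrocyte markers 206 and 91.4 CPM. T cell markers were nearly absent, with 4 and 3 of 6 at 0. The part of these other transcripts in the differences below was not tested.

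In microglia-like cells 8 of the 9 pathway genes differed between the libraries by less than 1.5-fold, and Smad7 was the exception. Levels below are CPM, the count of a gene per 1e6 UMIs summed over the microglia-like cells of a library, and ratios are log2 of corticosterone over vehicle. CPM does not correct for transcript length, so levels are compared between libraries and cell classes and not between genes. Smad7, the feedback inhibitor of the receptors, stood at 198.6 CPM (193.8 to 203.6) with vehicle and at 95.9 CPM (93.6 to 98.2) with corticosterone. Its level in corticosterone was thus 0.483 times that in vehicle, a log2 ratio of -1.05 (-1.10 to -1.001). Only 1.23% of the 6603 genes with a mean of at least 20 CPM had a ratio as low. One of 9 genes was past 1.5-fold, against 10.1% of all 6603 genes in either direction and 4.76% in the direction of Smad7. At 2-fold, which 3.07% of genes passed, and at a lower threshold, which 28.4% passed, Smad7 was again the single gene past it with CPM. Other scalings and cell selections changed both results. Smad7 was short of 2-fold with edgeR TMM factors (-0.96) and with DESeq2 size factors (-0.94). It was also short of 2-fold in cells with 2% to 5% mitochondrial UMIs (-0.98) and in cells of at least 8000 UMIs (-0.84). The same held over all cells of each library (-0.98) and in cells called microglia individually by their markers (-0.98). Nrros was past the lower threshold with TMM (0.41) and DESeq2 factors (0.42), and Tgfbr1 with DESeq2 factors (0.33). Nrros was also past it with the mean over cells of scaled counts (0.324). It was past it too in cells of 2000 to 4000 UMIs (0.37) and in cells with 2% to 5% mitochondrial UMIs (0.34). With CPM, the median ratio of the 9 genes was -0.05 and that of all 6603 genes 0.00. All 9 genes passed the minimum of 20 CPM.

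The ligand and the molecule that anchors it moved apart by small amounts. Tgfb1, the main TGF-beta ligand of microglia, was at 335.5 CPM (329 to 342) with vehicle and 307 CPM (303 to 311) with corticosterone, giving a log2 ratio of -0.13 (-0.16 to -0.09). Nrros, which tethers the latent ligand to the microglial surface, was at 274.6 CPM (269 to 280.4) with vehicle and 341.6 CPM (337 to 346) with corticosterone, giving a log2 ratio of 0.32 (0.28 to 0.35). Nrros thus had the highest ratio of the 9 genes, 1.24-fold, above that of 84.9% of all genes. Every other scaling and filter tried kept the sign of both ratios, but the Tgfb1 ratio shrank to -0.04 with edgeR TMM and -0.02 with DESeq2 factors. In cells of 1000 to 2000 UMIs the Tgfb1 interval ran from -0.28 to 0.12.

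The receptors differed from each other. Tgfbr1, the type I receptor kinase that phosphorylates Smad2 and Smad3, was at 1090.3 CPM (1079 to 1102) with vehicle and 1270.5 CPM (1262 to 1279) with corticosterone, giving a log2 ratio of 0.22 (0.20 to 0.24). Tgfbr2, the type II receptor that binds the ligand, was level at 352 CPM (346 to 359) and 351 CPM (347 to 356), with an interval of the log2 ratio from -0.04 to 0.03. The share of genes with a lower ratio was 77.1% for Tgfbr1 and 49.6% for Tgfbr2.

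None of the Smad transducers was past 1.5-fold. Smad3, which binds DNA directly, was at 82.9 CPM (79.8 to 86.1) with vehicle and 71.95 CPM (70.0 to 73.95) with corticosterone, giving a log2 ratio of -0.20 (-0.27 to -0.14). Smad2, the other receptor-activated Smad of this branch, was at 56.9 CPM (54.3 to 59.5) and 53.2 CPM (51.5 to 54.9), a log2 ratio of -0.10 (-0.18 to -0.02) that became 0.01 with DESeq2 size factors. Smad4, the shared partner, was at 57.2 CPM (54.6 to 59.9) and 55.4 CPM (53.7 to 57.1), with an interval from -0.13 to 0.03. Ski, the nuclear corepressor, was at 288.0 CPM (282 to 294) with vehicle and 305.6 CPM (301.5 to 309.6) with corticosterone, giving a log2 ratio of 0.09 (0.05 to 0.12). Counting intervals excluded 0 for 7 of the 9 genes, 3 higher and 4 lower, but at this depth they did so for 76.6% of all genes (39.1% higher and 37.5% lower), so their exclusion of 0 sets no gene of the pathway apart.

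**Figure D1:**
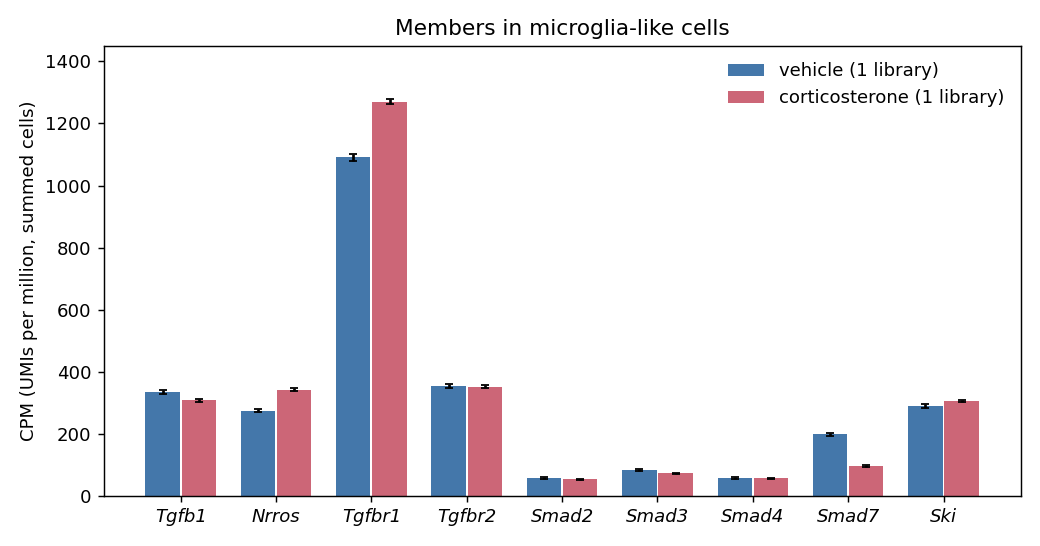
CPM of the 9 genes in microglia-like cells of the vehicle and the corticosterone library, with bars for the 95% counting interval. Smad7 lies at 198.6 CPM with vehicle and 95.9 CPM with corticosterone, and no other gene of the 9 differs by 1.5-fold.

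Because the corticosterone cells were deeper, Smad7 was read at matched depth. In cells of 2000 to 4000 UMIs it was at 211 CPM with vehicle (3375 cells) and 92.7 CPM with corticosterone (6893 cells), a log2 ratio of -1.19 (-1.27 to -1.10). In cells of 4000 to 8000 UMIs it was at 205 and 98.9 CPM, a ratio of -1.05 (-1.13 to -0.97), and in cells of at least 8000 UMIs at 172 and 96.2 CPM, a ratio of -0.84 (-0.94 to -0.73). The shallowest cells, of 1000 to 2000 UMIs, had the widest gap, with 214 CPM with vehicle (1145 cells) and 64.6 CPM with corticosterone (617 cells), a ratio of -1.73 (-2.13 to -1.35). Vehicle levels were thus lower in the deepest cells and corticosterone levels lower in the shallowest, and the Smad7 intervals of the libraries did not overlap in any depth range. In cells with 2% to 5% mitochondrial UMIs, the ratio was -0.98, from 192.7 CPM to 98.0 CPM. For Nrros the ratio over the depth ranges was 0.26 to 0.37, and for Tgfbr1 0.16 to 0.27.

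**Figure D2:**
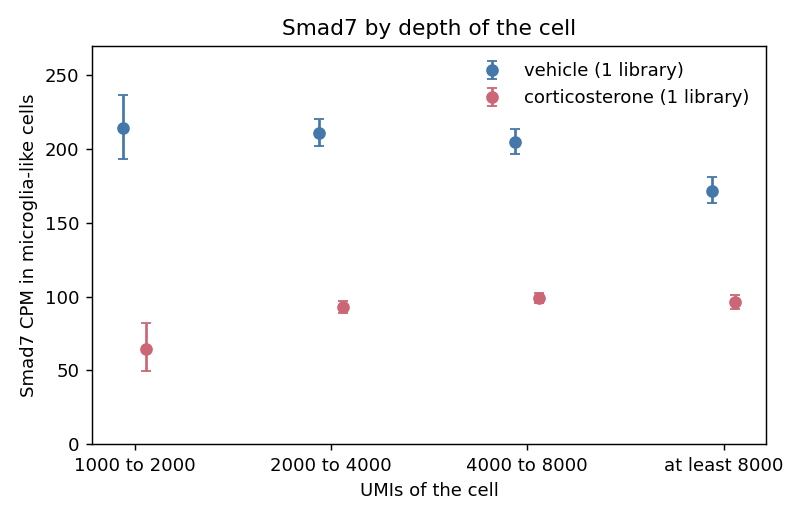
Smad7 CPM in microglia-like cells of each library by UMIs per cell, with bars for the 95% counting interval. Vehicle levels lie between 172 and 214 CPM and corticosterone levels between 64.6 and 98.9 CPM.

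The lower Smad7 level was spread over subgroups of the microglia-like class. In a second clustering of these cells, made after centring each gene within its library, the largest subgroup, led by Nr4a1, Egr3 and Cxcl2, had 203.6 CPM with vehicle (4663 cells) and 103.0 CPM with corticosterone (8955 cells). The next, led by noncoding transcripts and Klf4, had 179.3 CPM with vehicle (2760 cells) and 74.9 CPM with corticosterone (5194 cells). An interferon-response subgroup led by Ifit genes had 198.2 and 97.9 CPM. A subgroup that carried neutrophil granule transcripts (Ngp, Camp) had 204.5 and 110.1 CPM. The ratio thus ran from -1.26 to -0.89 over these 4 subgroups, and a cycling subgroup of 16 and 3 cells was too small to compare. Nrros was higher in corticosterone in each of the 4, with ratios of 0.24 to 0.57, and so was Tgfbr1, with ratios of 0.20 to 0.22. The clusters found over both libraries together were each held mostly by a single library. In cluster 1 Smad7 went from 198.3 CPM (7321 vehicle cells) to 90.6 CPM (230 corticosterone cells). It went from 270.7 CPM (213 cells) to 100.3 CPM (10516 cells) in cluster 0. In cluster 2 it went from 139.3 CPM (269 cells) to 75.2 CPM (3828 cells).

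Shares of cells with a transcript gave the same order for Smad7. With cells thinned to 1000 UMIs each, which left out 590 vehicle and 89 corticosterone cells, 17.5% (16.6 to 18.3%) of vehicle and 8.44% (8.00 to 8.89%) of corticosterone microglia-like cells had a Smad7 UMI. Without thinning the shares were 43.2% and 30.01%. Erythroid cells should lack most of these transcripts, but the erythroid cell-like barcodes also carried microglia markers, at ratios given below. They therefore do not measure background alone. After thinning, their Smad7 share was 12.98% (7.74 to 20.0%) in vehicle and 7.69% (2.88 to 16.0%) in corticosterone, with unthinned medians of 2598 and 3763 UMIs. The microglia-like share lay within that interval in both libraries, so these shares alone were not read as expression. Neutrophil-like barcodes, with medians of 2780 and 3724 UMIs, were lower at 9.06% (6.24 to 12.6%) and 2.31% (1.06 to 4.34%).

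Shares for the receptors and the anchor followed the order of their CPM. Thinned shares in vehicle and corticosterone were 65.0% and 70.6% for Tgfbr1, 23.3% and 28.1% for Nrros, and 29.6% and 28.9% for Tgfbr2. Erythroid cell-like barcodes had 53.4% and 65.4% for Tgfbr1 and 22.9% and 32.1% for Nrros. Because these barcodes carried microglia markers, their shares do not separate background from microglial RNA. The microglia-like shares alone were again not read as expression. Unthinned, Tgfbr1 was seen in 89.4% of vehicle and 97.0% of corticosterone microglia-like cells. Both receptors were found in the same thinned cell in 19.3% (18.4 to 20.2%) of vehicle cells, where the product of their shares was 19.2%. In corticosterone cells the figures were 20.6% and 20.4%. A thinned cell held transcripts of 2.06 of the 9 genes on average in vehicle and 2.05 in corticosterone. Counts per thinned cell had a variance of 1.02 to 1.15 times their mean over the 9 genes, against a median over all genes of 1.07 in vehicle and 1.05 in corticosterone. Smad7 stood at 1.15 and 1.09 times. Apart from Tgfbr1, the means were 0.36 UMIs a cell or fewer. At such low means this measure says little about real differences between cells, so their size cannot be read from it.

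Other cell classes of the sort also carried these transcripts, and each also carried microglial ones. In border-associated macrophage-like cells (1074 with vehicle, 796 with corticosterone), 4 markers of microglia (Sall1, P2ry12, Tmem119, Siglech) stood at a median of 0.823 and 0.648 times their CPM in microglia-like cells. In neutrophil-like cells (435 and 397) these markers were at 0.545 and 0.356 times, and in erythroid cell-like barcodes (159 and 80) at 0.794 and 0.838 times. In the 59 monocyte-like cells of the corticosterone library they were at 0.234 times. Endothelial cell-like barcodes (40 and 24) and vehicle monocyte-like cells (29) were too few to describe. The part of shared microglial RNA in the levels below was not tested.

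Nrros was higher in border-associated macrophage-like cells, macrophages of the meninges and vessel walls, than in microglia-like cells. Its level there was 319.8 CPM (309 to 330.5) with vehicle, 1.16 times (1.13 to 1.20) the microglia-like level, and 442.9 CPM (427 to 459) with corticosterone, 1.296 times (1.251 to 1.34). Both ratios lay above the marker ratios of 0.823 and 0.648. Tgfbr2 was at 1.02 and 0.981 times the microglia-like level in these cells. Tgfbr1 and Smad7 were lower and near the marker ratios, Tgfbr1 at 0.807 and 0.697 times and Smad7 at 0.732 and 0.616 times.

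In neutrophil-like cells the genes fell into groups by how closely they tracked microglial markers. Tgfbr1 was at 0.551 and 0.371 times its microglia-like level in vehicle and corticosterone, Smad7 at 0.545 and 0.363 times and Smad3 at 0.574 and 0.348 times, all close to the marker ratios of 0.545 and 0.356. Smad2, at 0.979 and 1.02 times, and Smad4, at 0.871 and 0.859 times, stood well above them. Nrros was in between at 0.790 and 0.565 times. In monocyte-like cells of the corticosterone library, Tgfb1 (1.09 times), Smad4 (1.13 times), Nrros (1.04 times) and Smad2 (0.909 times) lay near the microglia-like level, far above the marker ratio of 0.234. Tgfbr1 at 0.295 times and Tgfbr2 at 0.338 times lay closer to that ratio, and Smad7 was lower at 0.147 times (0.0591 to 0.303), from 7 UMIs or 14.1 CPM.

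Over classes of at least 50 cells, the order by Smad7 level differed between the libraries. In vehicle it ran from neutrophil-like (108 CPM) and erythroid cell-like (117 CPM), whose intervals overlapped, through cluster 8, led by class II histocompatibility genes (139 CPM), and border-associated macrophage-like cells (145 CPM), which also overlapped, to microglia-like cells (198.6 CPM). Above these lay cluster 4 (244.8 CPM, 219 to 273), whose cells had few UMIs, and cluster 10, led by Spp1 and Lpl (282 CPM, 223 to 352), again with overlapping intervals. In corticosterone the monocyte-like (14.1 CPM) and neutrophil-like (34.8 CPM) cells were lowest, with intervals that overlapped narrowly. Cluster 8 (53.9 CPM), border-associated macrophage-like cells (59.0 CPM) and cluster 10 (66.2 CPM) overlapped, as did cluster 10 with microglia-like cells (95.9 CPM) and these with erythroid cell-like barcodes (99.1 CPM, 70.5 to 135). Cluster 4 was highest (143.6 CPM, 129 to 159), clear of all but the erythroid cell-like interval.

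**Figure D3:**
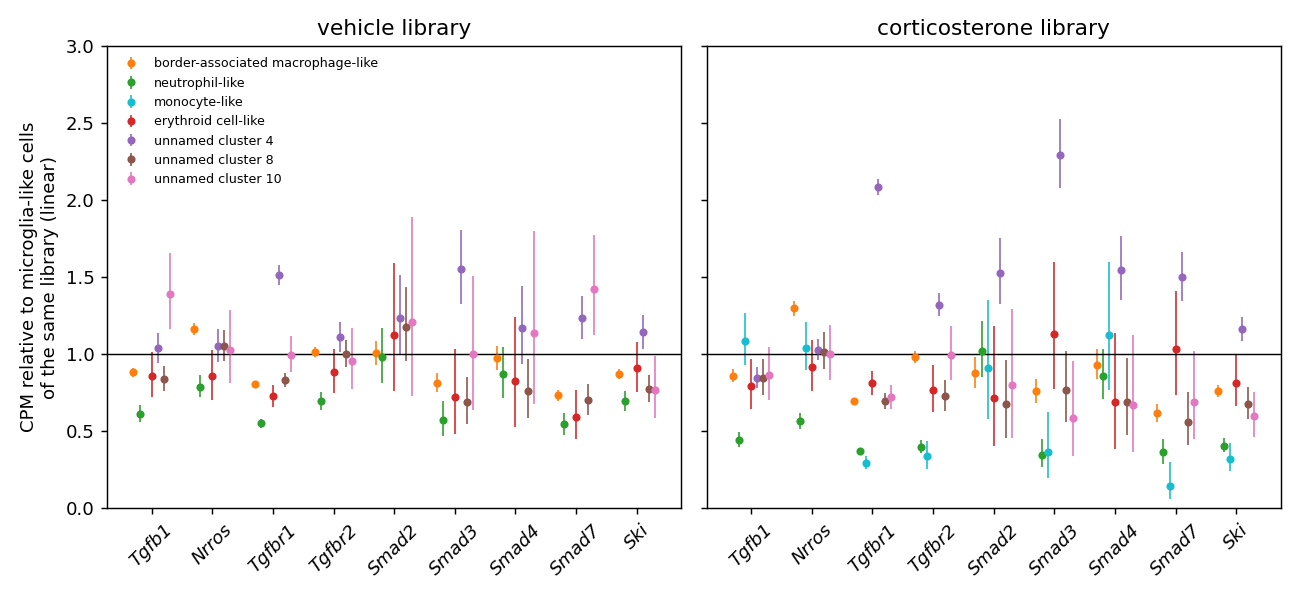
Level of each gene in the other cell classes relative to microglia-like cells of the same library, on a linear scale with 95% counting intervals, for classes of at least 50 cells. Nrros is above 1 in border-associated macrophage-like cells of both libraries, and Tgfbr1 and Smad3 are highest in cluster 4, at 2.08 and 2.29 times in corticosterone.

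Cluster 4 held the highest levels of Tgfbr1 and Smad3 in both libraries. Its 668 vehicle and 1173 corticosterone cells had medians of 1079 and 1258 UMIs. The cluster had first met the rule for microglia. It lost that name because its UMI totals were low and no microglia marker was among its leading genes. Tgfbr1 was there at 1649 CPM (1580.05 to 1721) with vehicle and 2647 CPM (2583 to 2711) with corticosterone, 1.51 and 2.08 times the microglia-like level. Smad3 was at 128.6 CPM (109.8 to 149.6) and 165 CPM (149.6 to 182), or 1.55 and 2.29 times. The microglia markers were at 0.762 and 0.724 times in the same cells. The log2 ratio between the libraries was 0.68 (0.61 to 0.75) for Tgfbr1 there, past 1.5-fold, a size that 18.1% of genes reached in this cluster. The part of the low UMI totals in these levels was not tested.

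Smad7 was lower in corticosterone in 7 of 7 classes with at least 50 cells in both libraries, and its interval lay below 0 in 6. These 7 include the unnamed clusters 4, 8 and 10, which had first met the rule for microglia. The share of all genes lower in as many classes was not computed. All classes come from the same libraries and share microglial RNA, so they are not independent repeats. Its log2 ratio was -1.3 (-1.46 to -1.14) in border-associated macrophage-like cells, from 145 to 59.0 CPM, where 11.2% of genes were past 1.5-fold. In neutrophil-like cells it was -1.63 (-2.01 to -1.27), from 108 to 34.8 CPM, where 23.0% of genes were past 1.5-fold. Erythroid cell-like barcodes were the exception, at 117 and 99.1 CPM with an interval from -0.87 to 0.37. Past 1.5-fold were 1 of the 9 genes in border-associated macrophage-like cells (Smad7) and 5 in neutrophil-like cells (Tgfb1, Tgfbr2, Smad3, Smad7 and Ski, all lower). Small classes had a high background: 1 gene was past the fold in erythroid cell-like barcodes (33.3% of all genes), 2 in cluster 8 (22.5%) and 5 in cluster 10 (36.6%). These classes carried microglia markers at the ratios given above or, in clusters 8 and 10, at 0.455 to 0.797 times.

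Tgfb1 was also lower in 7 of 7 classes, with the interval below 0 in 5, and its ratio ran from -0.82 in cluster 10 to -0.11. In microglia-like cells the Tgfb1 ratio was only -0.04 with TMM and -0.02 with DESeq2 factors. The limits given for the Smad7 count over classes hold for Tgfb1 and Nrros too. Nrros had an interval above 0 in 5 classes, the highest ratio being 0.47 (0.40 to 0.54) in border-associated macrophage-like cells, and was lower in neutrophil-like cells at -0.17 (-0.36 to 0.02). Neutrophil-like cells also had lower Tgfbr1, at -0.35 (-0.46 to -0.23), and lower Tgfbr2, at -0.81 (-1.01 to -0.61). The microglia markers were lower in the same barcodes, from 0.545 to 0.356 times, and the mix of neutrophil clusters differed. Cluster 6 had 200 vehicle and 273 corticosterone cells, and cluster 7 had 235 and 124. Within cluster 6 the Tgfbr1 ratio was -0.14 (-0.27 to -0.00), and within cluster 7 it was -0.97 (-1.22 to -0.73). Smad7 was lower in corticosterone in both, at -1.45 and -2.27.

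**Figure D4:**
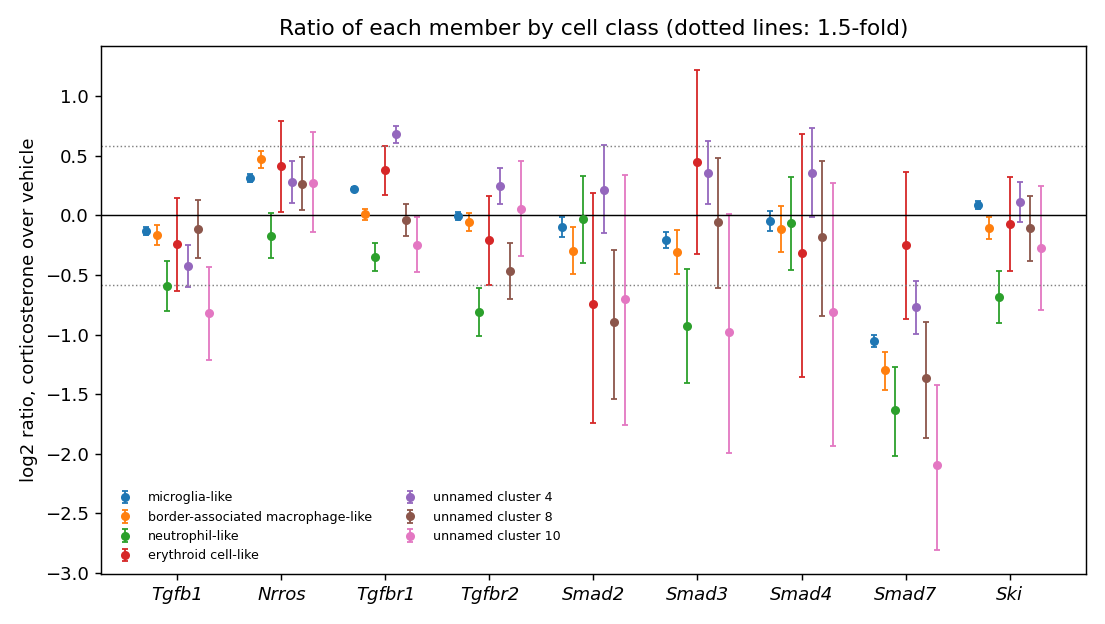
Log2 ratio of corticosterone over vehicle for the 9 genes in each cell class, with 95% counting intervals. Smad7 is below 0 in each class shown, from -2.09 in cluster 10 to -0.25 in erythroid cell-like barcodes.

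Genes around the 9 in the pathway were read beside all 6603 genes, of which 10.1% were past 1.5-fold in microglia-like cells. Of 15 genes of latency and activation, 7 passed the minimum of 20 CPM, none was past 1.5-fold in either direction, and their median ratio was 0.36 against 0.00 for all genes. The integrin subunits that can release the ligand lay at 109 CPM with vehicle and 139 CPM with corticosterone for Itgav and at 1280.1 and 1661 CPM for Itgb5. Plau, a protease, had the highest ratio of this list, 0.58, and the integrin subunit Itgb3 the lowest, -0.23. Itgb8, an integrin subunit known to activate TGF-beta in the brain, had 2 and 4 UMIs, and Lrrc32, the counterpart of Nrros on regulatory T cells, had 1 and 0. None of 10 other ligands passed the minimum, with 3 and 12 UMIs for Tgfb2 and 1 and 3 for Tgfb3.

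Other receptors and transducers were within 1.5-fold as well. Of 10 other receptors 5 passed, with a median ratio of -0.07, from 0.40 for Acvrl1 to -0.33 for the coreceptor Eng. Of 11 other transducers 8 passed, with a median of -0.26, from 0.02 for Zfyve16 to -0.47 for Smad1, which serves the bone morphogenetic protein branch. Of 13 other inhibitors 10 passed, with a median of 0.04, from 0.56 for Fkbp1a, which binds the type I receptor, to -0.19 for Skil, a relative of Ski. Smad6, the other inhibitory Smad, stayed below the minimum at 3.48 and 5.44 CPM. None of the genes that passed in these 3 lists was past 1.5-fold, against 10.1% of all 6603 genes. The lists are short, so this does not set them apart.

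Response genes did not move as a block. Of 12 general response genes 6 passed, 1 was past 1.5-fold higher and 2 lower, and the median ratio was -0.14. Among all 6603 genes 5.3% were past 1.5-fold higher and 4.76% lower. Tgfbi, a secreted matrix protein induced by TGF-beta, was at 42.6 CPM with vehicle and 86.9 CPM with corticosterone, a ratio of 1.03. Cdkn1a, a cell cycle inhibitor, was at 74.6 and 36.7 CPM, a ratio of -1.02, and Id2, a transcriptional regulator, at 556 and 328 CPM, a ratio of -0.76.

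Of 19 microglial genes known to need the pathway, 19 passed, 7 were past 1.5-fold lower and none higher, with a median of -0.42. Their ratios ran from 0.37 for the transporter Slco2b1 to -2.21 for the receptor-like gene Fcrls. Of the 12 genes listed as higher in microglia that lack the pathway, 11 were found in the files and 4 passed, all past 1.5-fold higher, from 0.86 for the chemokine Ccl2 to 3.43 for the lipid carrier Apoe. Each of the 4 was above the minimum in both libraries. Among those that did not pass, Axl had a ratio of 3.67, Cst7 -0.91 and H2-Aa -1.36. Among all 6603 genes 5.3% were past 1.5-fold higher and 4.76% lower. Both lists hold genes regulated by many other signals. They were written with earlier results of these data known, so their counts are not independent of these data, and the lists were described with no test.

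**Figure D5:**
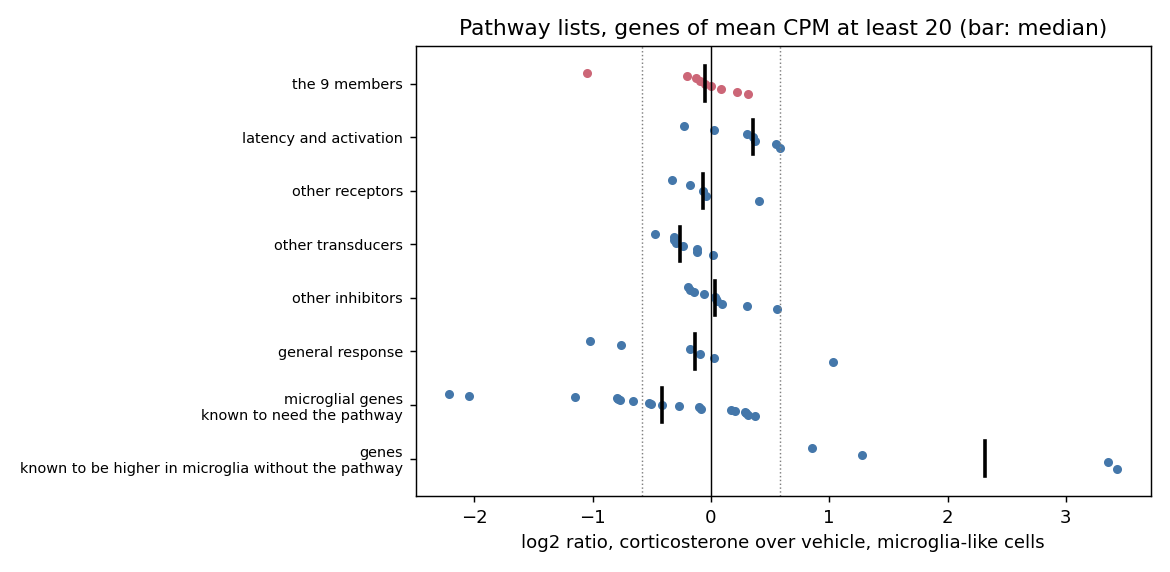
Log2 ratio of corticosterone over vehicle in microglia-like cells for genes of each pathway list with a mean of at least 20 CPM, each point a gene and each line the list median. The list medians are 0.36 for latency and activation, -0.14 for general response genes and -0.42 for microglial genes that need the pathway.

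Across 15 profiles of a cell class in a library, the genes most like each of the 9 were found by Pearson correlation of log2(CPM + 1) among 6377 genes. For Smad7 these were Smap2 (0.97) and Ddx3x (0.96), for Tgfbr1 Fmnl3 (0.97) and Mknk1 (0.96), and for Tgfbr2 Ptpra and Rhoq (0.96 each). Smad3 was nearest to Nf1 (0.97) and Zmiz1 (0.96) and Ski to Nrip1 (0.97) and Bin1 (0.96). The correlations were lower for Nrros, with Trap1 and Fkbp1a (0.89 each), for Tgfb1, with Isg20l2 and Bach1 (0.89 each), for Smad2, with Phtf2 (0.90) and Ncoa6 (0.89), and for Smad4, with Sec24b (0.91) and Elmsan1 (0.90). Between the 9 genes, Tgfbr1 and Smad3 had a correlation of 0.94 and Tgfbr1 and Tgfbr2 one of 0.87, whereas those of Nrros ran from -0.30 to 0.42. The profiles share libraries, depth and microglial RNA, so these values describe the profiles only.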

How the data were processed

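Deposited raw UMI counts per gene and barcode were used, 1 matrix per library, per the file headers and values, and each file was assigned through its sample record because its name uses other words than the labels. The submitters' processing notes name bcl2fastq 2.19 and GRCm38. The aligner and the counting program are not given in the sources used here. Barcodes with at least 500 UMIs, 300 genes and at most 20% mitochondrial UMIs were kept, which removed 55 and 230. Scrublet marked only 0 and 1 cells, which was read as a failed call, and doublets were kept. Scanpy 1.11.5 clustering used 2000 variable genes without the 9 members, 30 components, 15 neighbours and Leiden resolution 0.5. A cluster took a name from 3 markers, each found in 10% or more of its cells and 2 times higher than elsewhere, or, for microglia, from a geometric mean of the markers no lower than 0.5 times the overall value. The name was removed when another class had more markers among the 10 leading genes (clusters 8 and 10, first microglia). It was also removed when UMIs were low and no marker of the class led (cluster 4, first microglia, at 0.324 times the library median). Counts were summed per class and library. Intervals are exact Poisson, conditional binomial for ratios and Clopper-Pearson for shares, at the 95% level. A gene past 1.5-fold counts as called. The computation was checked on simulated counts. Alternatives included edgeR 4.0.16 TMM and DESeq2 1.42.0 size factors, used for scaling only. Named genes were the 9 members, the highest and lowest of each list and the 2 most correlated genes per member. Other genes are named as examples chosen after their values were seen. The members and lists were chosen with earlier results of these data known. One gene of the response list is not reported here by name.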

Additional observations from a re-analysis of the deposited data

Results flagged for a closer look

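Ski and Tgfbr1 had ratios of opposite sign in different cell classes. Ski had a log2 ratio of corticosterone over vehicle of 0.09 in microglia-like cells, -0.10 (-0.19 to -0.01) in border-associated macrophage-like cells and -0.68 (-0.90 to -0.47) in neutrophil-like cells. Tgfbr1 had a ratio of 0.22 in microglia-like cells and -0.35 in neutrophil-like cells. With 1 library per group these differences between classes were not tested, and they were not recomputed under other scalings. In neutrophil-like cells, 4 microglia markers stood at 0.545 times their microglia-like level in vehicle and 0.356 times in corticosterone, and in border-associated macrophage-like cells at 0.823 and 0.648 times. The part of this in the opposite signs was not tested.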

How the results depend on the processing

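Smad7 stayed lower and past 1.5-fold in 19 of 19 alternatives, from -1.73 in cells of 1000 to 2000 UMIs to -0.84 in cells of at least 8000 UMIs. The number of the 9 genes past the fold was 1 in 21 of 21, a lower and a higher fold threshold under the main scaling included. Among the 19, letting the members be variable genes and dropping the low-count filter could not alter a member's ratio. None of the members was picked as variable, and the filter leaves a gene's own ratio unchanged. At Leiden resolution 1.0 a cluster with 5084 vehicle cells lost its microglia name, so that setting compared fewer vehicle cells. The alternatives by depth, shared barcodes, mitochondrial share and without the interferon-high cluster were chosen after seeing the data. The median ratio of the 9 genes, -0.05, changed sign to 0.043 with edgeR TMM factors, 0.060 with DESeq2 size factors, 0.034 in cells of 4000 to 8000 UMIs and 0.0043 in cells with 2% to 5% mitochondrial UMIs. The TMM and DESeq2 scalings moved the median of all genes to 0.09 and 0.11, and relative to it the median of the 9 was -0.05 under both. The sign was kept in 19 of 19 alternatives for Tgfb1, Nrros, Tgfbr1, Smad3 and Ski, in 18 for Smad2, 15 for Smad4 and 13 for Tgfbr2. The share of genes past 1.5-fold was 32.4% with no filter on low counts and 22.9% in cells of 1000 to 2000 UMIs, against 10.1%. No paired analysis was possible because each group has 1 library.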
